A study of Homo sapiens with 9 samples.

Results

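The genes described here are the histone genes that carry the older HIST1 to HIST4 symbols, 73 of the 26929 genes in the expression table. A row belonged when its symbol began with HIST1H, HIST2H, HIST3H or HIST4H followed by 1, 2A, 2B, 3 or 4, and no measured value entered that choice. They encode the linker histone H1 (6 rows), the core histones H2A (18 rows), H2B (20 rows), H3 (14 rows) and H4 (15 rows). By cluster, 56 are HIST1 genes on chromosome 6, 13 are HIST2 genes and 3 are HIST3 genes on chromosome 1, and 1 is the HIST4 gene on chromosome 12. Pseudogenes account for 3 rows (HIST2H2BA, HIST2H2BC and HIST1H2APS1), and HIST1H1T, HIST1H2AA, HIST1H2BA and HIST3H3 are known from the testis, so the symbol rule takes in a few genes that are not replication-dependent histone genes of dividing cells.

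The cells were MV4-11, an established human acute myeloid leukaemia line that carries a KMT2A fusion and an internal tandem duplication in FLT3. They were kept for 24 h with either the solvent DMSO or 1 of the compounds JPX-0700 and JPX-0750, which the series title describes as degraders of STAT3 and STAT5, and each of the 3 groups has 3 libraries. No genotype or agent beyond these was given in the labels, and they state no concentration. The labels number the replicates but do not say whether they came from separate cultures, so p-values measure the spread between these libraries, which may be technical. A single line of cells in culture was the only model.

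Most messenger RNAs end in a poly(A) tail. The replication-dependent histone messengers are the known exception among animal messengers: they are made in S phase together with new DNA, carry no introns, and end just after a short stem-loop that the stem-loop binding protein SLBP holds and that the U7 small nuclear ribonucleoprotein helps to cut. A small part of them is polyadenylated at sites further downstream, for example in differentiated cells or when the stem-loop cut is missed. The libraries here were made with a QuantSeq 3′ kit, which primes from oligo(dT), so a histone read comes from a tailed histone transcript or from priming inside an A-rich stretch. The counts cannot tell these apart, and in a bulk sample fewer cells that express a gene and less RNA per cell cannot be told apart either.

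The deposited values are normalised counts, from which whole reads could be recovered. DMSO libraries held 2701317 to 6305586 reads and treated libraries 726043 to 1941860, and 1 read was worth 0.383 to 4.61 normalised counts. In every group 1 library detected far fewer genes than its partners: DMSO replicate 1 (9816 genes with a read), JPX-0700 replicate 3 (10027) and JPX-0750 replicate 3 (10407), against 13068 to 14616 in the other 6. Structured noncoding RNAs, which have no poly(A) tail as a rule, took 0.0391% to 0.235% of reads with DMSO and 8.15% to 13.5% with either compound, so this share separates the treated libraries from the DMSO libraries in the same way as the histone results do, and its part in them was not tested. MALAT1, a nuclear noncoding RNA whose end is formed without the usual poly(A) tail, was looked at after its values were seen. It took 0.176% to 0.547% of reads with DMSO and 3.49% to 8.92% with either compound, and its part was not tested either. Of 12 myeloid genes, 7 to 10 had a read in each library, with LYZ, FLT3, CD33 and SPI1 among the 7 found in all 9 and CD14 and CSF2RA in none. Of 20 genes that mark T and NK, B, erythroid, fibroblast and epithelial cells, 3 to 9 had a read, summed to 65.1 to 183 normalised counts per library, NKG7 was the only one read in all 9, and HBB, HBA2 and EPCAM were among those at 0 throughout.

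A read was found for 62 of the 73 genes, and 58 reached the mean of 5 normalised counts that admitted a gene to the test (5 of H1, 13 of H2A, 18 of H2B, 10 of H3 and 12 of H4). With JPX-0700, 19 of the 58 rose and 0 fell (limma, Benjamini-Hochberg adjusted over all 12301 genes tested), against a background of 5.28% of all genes that rose and 0.496% that fell. With JPX-0750, 18 of the 58 rose and 0 fell, against 3.9% and 0.0732%. The filter took the mean over all 9 libraries, so the 36 of the 58 with a DMSO mean under 5 normalised counts were admitted through their treated libraries, which fixed their direction. With every gene that had a read admitted, 17 and 14 of 62 histone genes rose, against 3.03% and 2.16% of 18083 genes. At an unadjusted p under 0.05 stood 33 and 36 of the 58, where 19.6% and 14.2% of all genes did. The median log2 fold change of the 58 was 3.40 with JPX-0700 and 3.68 with JPX-0750, whereas the median over all genes was 0.14 and 0.26. Taken from reads per scaled depth, with genes that had no DMSO read at their lower bound, the median log2 ratio of the 58 was 4.13 and 4.38. Both comparisons use the same DMSO libraries. The count differed by class, a difference that was not tested: none of the 5 tested H1 genes passed the test, while 6 (JPX-0700) and 7 (JPX-0750) of 10 H3 genes rose. Of the H2A genes 4 and 3 of 13 rose, of the H2B genes 5 and 4 of 18, and of the H4 genes 4 and 4 of 12.

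Not all of the 58 rest on the same depth. With DMSO, 41 of them had 0 reads in replicate 1, 3 had 0 reads in all 3 libraries and 8 had 1 to 3 reads over the group. Every JPX-0700 library lay above every DMSO library for 31 of the 58 genes (background 16.5%), and every JPX-0750 library did so for 33 (background 19.7%). Without the 3 libraries that detected the fewest genes, 43 of the 58 rose with each compound. The background was 17.5% with JPX-0700 and 17.8% with JPX-0750. The JPX-0750 count was 8 without JPX-0750 replicate 1 (background 2.06%), 9 without JPX-0750 replicate 2 (background 2.17%) and 29 without JPX-0700 replicate 3, which shares the estimate of the spread (background 8.06%). The share of all genes called moved in the same direction as the histone counts in these fits.

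**Figure D1:**
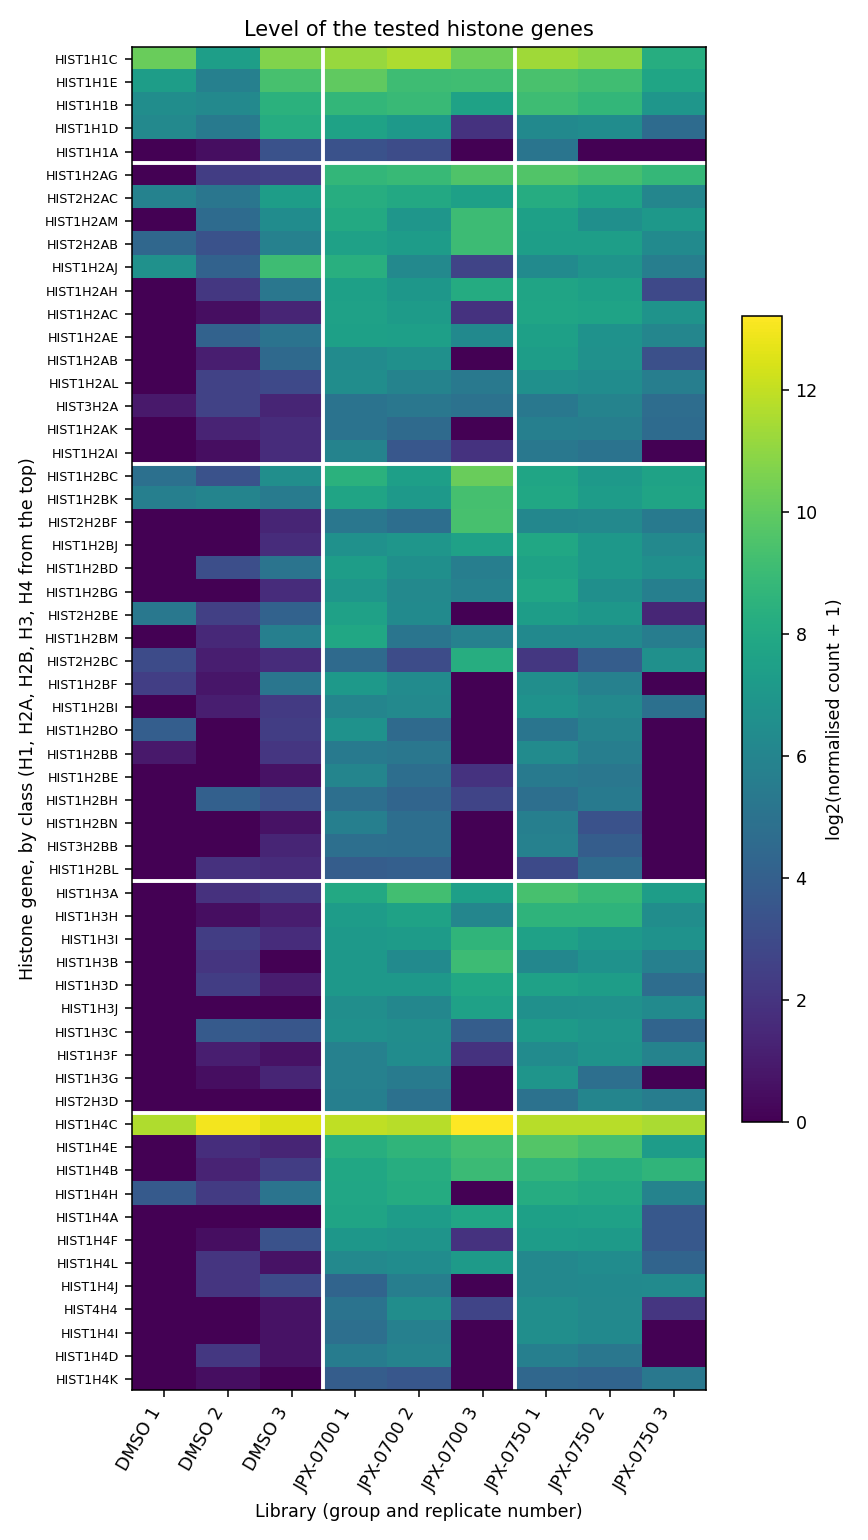
Level of the 58 tested histone genes (rows, by class) in the 9 libraries (columns), as log2(normalised count + 1) in colour. 36 rows have a DMSO mean under 5 normalised counts, HIST1H4C and HIST1H1C are bright in all 3 DMSO columns, and 18 rows are at 0 in JPX-0700 replicate 3 and 13 in JPX-0750 replicate 3.

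The summed level of a class under DMSO was lowest for H3 and highest for H4. Summed H3 levels were 0, 28.4 and 21.00 under DMSO, 1148, 1461 and 1620.1 under JPX-0700 and 1965, 1683 and 638 under JPX-0750. In normalised counts the H3 class thus had almost nothing with DMSO, and the treated libraries did not overlap with it. Summed H2B levels were 144, 106 and 305 under DMSO, 1940.2, 1081 and 3121 under JPX-0700 and 1910.2, 1309.7 and 845 under JPX-0750. Summed H2A levels were 181, 122 and 953 under DMSO, 2346, 1755 and 2404 under JPX-0700 and 2509, 2042 and 1056 under JPX-0750. Both classes lay higher in every treated library than in every DMSO library. Summed H1 levels were 1497, 334 and 2951 under DMSO, 3973, 4234 and 2023 under JPX-0700 and 3919.7, 3115 and 661 under JPX-0750, which overlap, and summed H4 levels were 3183, 7972 and 5983 under DMSO, 5318, 5150.5 and 10968 under JPX-0700 and 5806, 5489 and 3760.1 under JPX-0750, which overlap too. The ratio of the group means to DMSO, for JPX-0700 and JPX-0750 in turn, was 85.6 and 86.8 for H3, 11.1 and 7.33 for H2B, 5.17 and 4.46 for H2A, 2.14 and 1.61 for H1 and 1.25 and 0.878 for H4. Without DMSO replicate 3 the ratios were 14.3 and 12.3 for H2A and 3.72 and 2.80 for H1, and without DMSO replicate 2 those of H3 were 134 and 136. These sums carry no test.

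**Figure D2:**
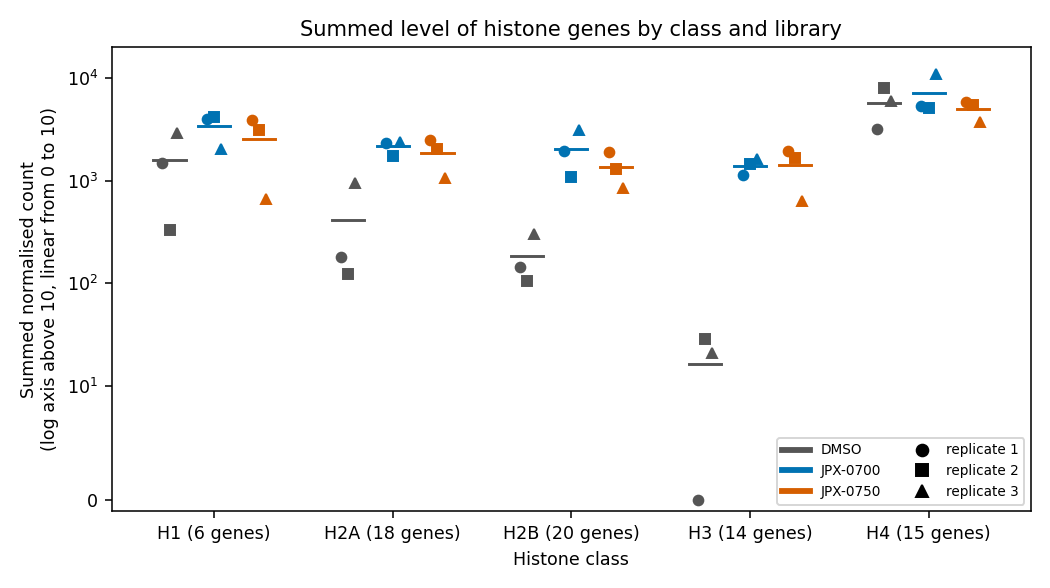
Summed normalised count of all genes of each histone class, per library (symbols give the replicate number, colours the group, bars the group mean; the vertical axis is logarithmic above 10 and linear below). H3, H2B and H2A lie higher in all 6 treated libraries than in the 3 DMSO libraries, and H1 and H4 overlap.

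A single gene, HIST1H4C, made up most of the H4 sum in every library. HIST1H4C (chr6:26103876-26104310, plus strand, GRCh38), one of the H4 genes that all encode the same core histone, had normalised counts of 3171, 7953 and 5927 under DMSO, 4000.2, 3559 and 9476 under JPX-0700 and 3547, 3593 and 2987 under JPX-0750. Its groups overlap, and its log2 fold change was -0.05 ± 0.45 (SE; limma adjusted p = 0.966) with JPX-0700 and -0.66 ± 0.45 (adjusted p = 0.544) with JPX-0750. It took 58.0% to 92.9% of all histone reads in the DMSO libraries and 22.01% to 47.1% in the treated ones. All histone reads together were 0.206% to 0.470% of a DMSO library, 0.391% to 0.432% of a JPX-0700 library and 0.215% to 0.440% of a JPX-0750 library. The histone share of the reads thus overlapped between the groups, while the HIST1H4C share of it did not. Without HIST1H4C, the summed level of the other genes was 4.68 times that of DMSO with JPX-0700 and 3.95 times with JPX-0750. These sums overlap, with JPX-0750 replicate 3 (3973) below DMSO replicate 3 (4287), and without DMSO replicate 3 the ratios were 8.60 and 7.25.

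The end of the annotated HIST1H4C transcript is rich in A. It runs 51 bases past the stop codon in GENCODE v29 and its last 20 bases (chr6:26104291-26104310, plus strand) are shown here with A in capitals, because 18 of the 20 are A.
HIST1H4C: AAAAAAcAAAAAcAAAAAAA
Among the 57 tested coding genes, the A count of the richest 20-base stretch ran from 7 to 20, with class medians of 12 for H1, 11 for H2B, 10 for H2A and 9 for both H3 and H4. The H1 genes, whose tails are full of lysine codons, held 12 or 13 A in 20. HIST1H1C (stretch at chr6:26055958-26055977, minus strand) gives an example from the coding sequence, with A in capitals.
HIST1H1C: ctAAgAAAAcAccgAAgAAA
The 8 genes with a DMSO mean of at least 50 normalised counts were HIST1H4C, HIST1H1C, HIST1H1E, HIST1H2AJ, HIST1H1B, HIST1H1D, HIST2H2AC and HIST1H2BK. Their richest stretch held 10 to 18 A (median 12), against 7 to 20 (median 10) for the other 49. HIST1H2BG, whose long annotated transcript ends in a run of A, held 20 A in 20 and had a read in only 1 DMSO library. Only 1 annotated transcript per gene was searched, that with the shortest end among those holding the stem-loop, or among all where none did. Longer annotated ends of some genes, such as HIST1H2BN, were thus left out. Long annotated transcripts offer more stretches than short ones, so the comparison between genes is a description only.

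**Figure D3:**
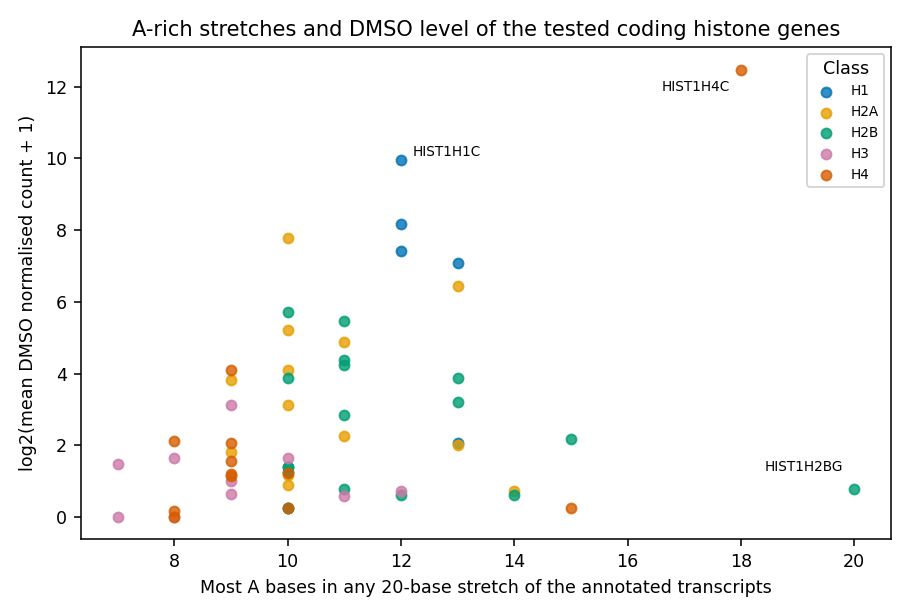
DMSO level of the 57 tested coding histone genes, as log2(mean normalised count + 1), against the largest number of A bases in any 20-base stretch of 1 annotated transcript per gene, coloured by class. HIST1H4C (18 A) is the highest point, the H1 genes stand at 12 or 13 A, and HIST1H2BG (20 A) stands near 0.

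The H1 genes encode linker histones, which sit on the DNA between nucleosomes. None of the 5 tested passed the test. HIST1H1C (chr6:26055787-26056428, minus strand) had normalised counts of 1176, 166 and 1655 under DMSO, 2332, 3019 and 1248 under JPX-0700 and 2567, 2019 and 302 under JPX-0750. HIST1H1E (chr6:26156354-26157107, plus strand) had 159.8, 52.5 and 649 under DMSO, 1000.1, 559 and 575 under JPX-0700 and 681, 573 and 213 under JPX-0750. Both overlap between the groups, with DMSO replicate 2 far below the other DMSO libraries. The log2 fold change of HIST1H1C was 1.58 ± 0.79 with JPX-0700 and 0.76 ± 0.79 with JPX-0750 (SE; limma adjusted p = 0.285 and 0.71), and that of HIST1H1E was 1.95 ± 0.72 and 1.30 ± 0.72 (adjusted p = 0.136 and 0.436). Over the 5 genes the log2 fold change ran from -1.04 to 1.95 with JPX-0700 and from -0.82 to 1.30 with JPX-0750.

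For core histone genes with few DMSO reads, the fitted fold change depends on the 1 that was added before the logarithm, so it is no estimate of the ratio. There were 8 genes, HIST1H4E, HIST1H4B, HIST1H3A, HIST1H3H, HIST1H3I, HIST1H3J, HIST1H2AG and HIST1H2BJ, that rose with both compounds and did so under all 20 alternative settings tried in each comparison, the leaving out of any 1 library included. All 8 had a DMSO mean under 5 normalised counts, so admission through their treated libraries fixed their direction. The settings thus bear on whether these genes were called and not on the direction. Each of the other genes that rose lost a call with at least 1 compound under at least 1 alternative.

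**Figure D4:**
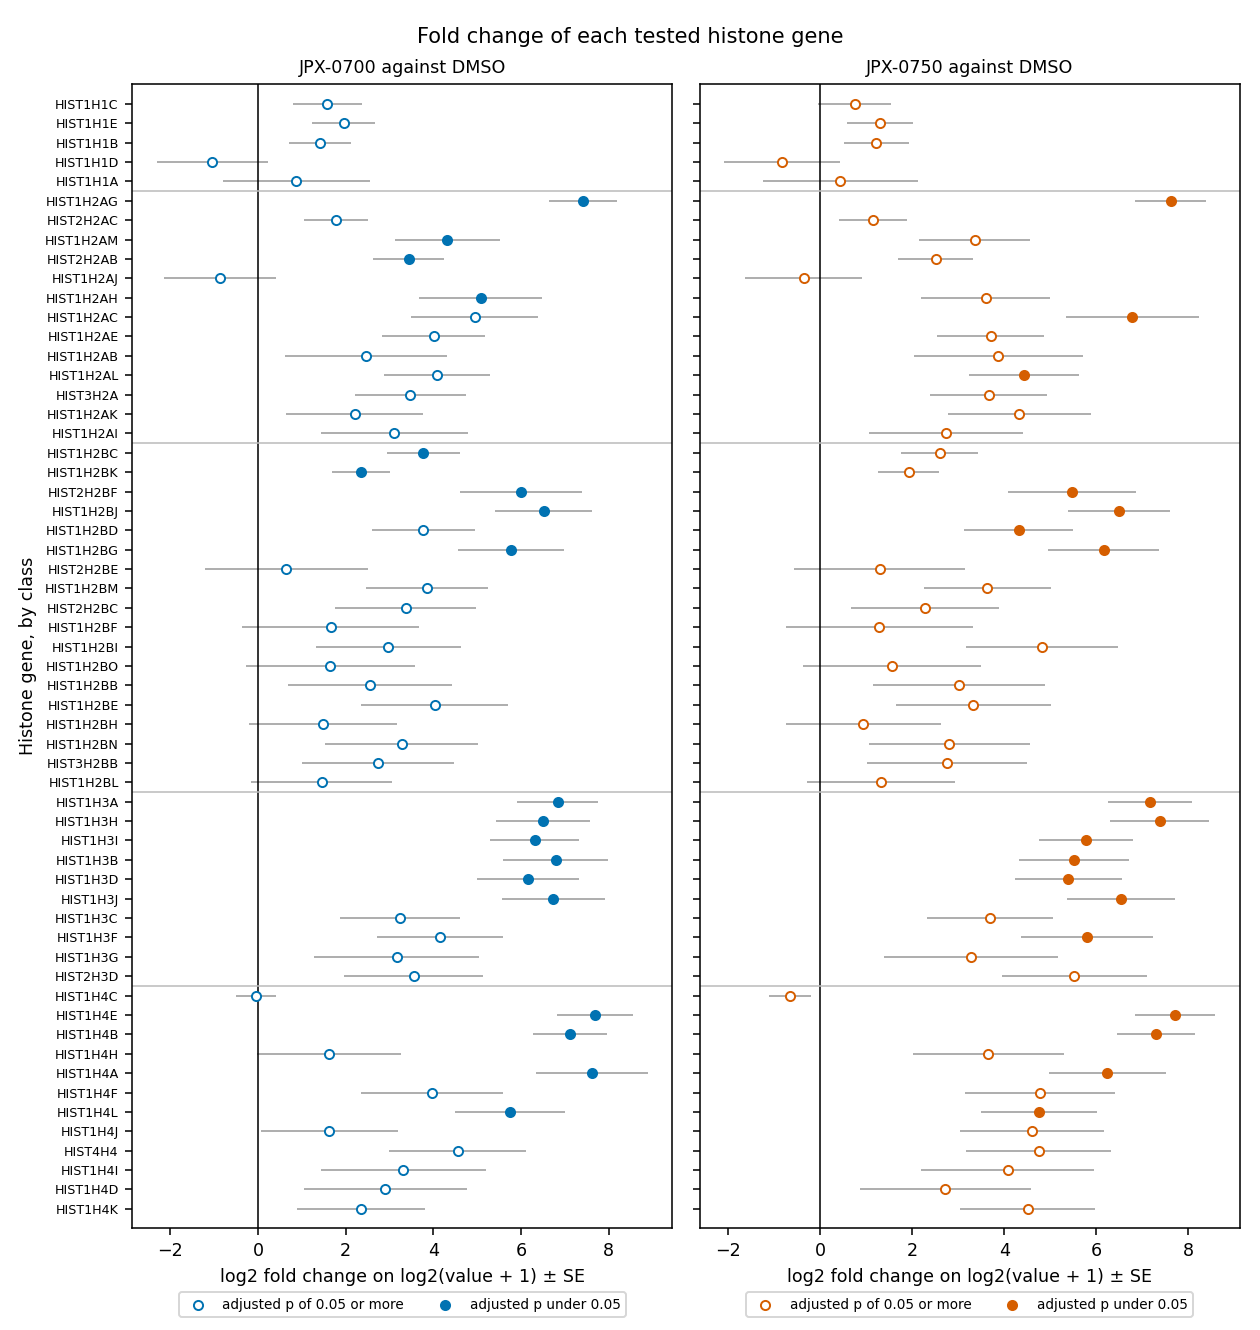
Log2 fold change with its standard error for each of the 58 tested histone genes, by class, with JPX-0700 (left) and JPX-0750 (right) against DMSO. Filled points passed the limma test (19 and 18 genes, each to the right of 0), and HIST1H4C and the 5 H1 genes are open.

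H3 forms with H4 the tetramer at the core of the nucleosome, and its tail carries many of the known modifications. HIST1H3A (chr6:26020490-26020900, plus strand) had normalised counts of 0, 2.68 and 3.77 under DMSO, 249, 589 and 175 under JPX-0700 and 661, 477 and 163 under JPX-0750. HIST1H3H (chr6:27810064-27811300, plus strand) had 0, 0.383 and 1.08 under DMSO, 157, 198 and 66.7 under JPX-0700 and 387, 382 and 88.3 under JPX-0750. Neither gene overlaps between DMSO and treated libraries, and replicate 3 is the lowest library of both treated groups for each. HIST1H3A rose by 6.83 ± 0.92 on the log2 scale with JPX-0700 and by 7.17 ± 0.92 with JPX-0750 (SE; limma adjusted p = 7.87e-05 and 4.58e-05). HIST1H3H rose by 6.498 ± 1.07 and 7.38 ± 1.07 (adjusted p = 0.000713 and 0.000202). Only 3 DMSO reads stand behind HIST1H3H, and its reads per scaled depth were 244 (95% counting interval 81.4 to 1202) times those of DMSO with JPX-0700 and 418 (95% counting interval 141 to 2041) times with JPX-0750.

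HIST1H3J (chr6:27890382-27893106, minus strand) had normalised counts of 0, 0 and 0 under DMSO, 92.2, 67.1 and 189 under JPX-0700 and 99.3, 100.05 and 78.3 under JPX-0750. It had no read with DMSO, so against a floor of 3 reads over the 3 DMSO libraries it was at least 233-fold higher with JPX-0700 and at least 164-fold higher with JPX-0750 (adjusted p = 0.00124 and 0.00182 in limma). HIST1H3I had normalised counts of 0, 4.22 and 2.15 under DMSO, 134, 149 and 406 under JPX-0700 and 185, 136 and 105 under JPX-0750, and rose by 6.31 ± 1.02 and 5.78 ± 1.02 on the log2 scale (adjusted p = 0.000559 and 0.00153). In both genes every treated library exceeded the highest DMSO library. An annotated transcript of HIST1H3J also covers 277 of the 70-base windows of HIST1H2AM, so reads there cannot be assigned to 1 of these genes with certainty. HIST2H3D, on chromosome 1, also had no DMSO read and was at least 41.8-fold and 85.3-fold higher, but JPX-0700 replicate 3 was at 0 and neither comparison passed the test (adjusted p = 0.226 and 0.0605). It shares 73.4% of its 70-base windows with other genes.

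HIST1H3B and HIST1H3D, 2 further H3 genes, rose with both compounds. HIST1H3B had normalised counts of 0, 3.07 and 0 under DMSO, 129, 78.3 and 534 under JPX-0700 and 68.5, 105 and 53.3 under JPX-0750 and HIST1H3D had 0, 4.22 and 1.08 under DMSO, 129, 130.4 and 233 under JPX-0700 and 185, 164 and 24.99 under JPX-0750. JPX-0700 replicate 3 was the highest library of each, and no treated library reached down to DMSO. Log2 fold changes were 6.79 ± 1.19 and 5.53 ± 1.19 for HIST1H3B (limma adjusted p = 0.00135 and 0.00994) and 6.17 ± 1.16 and 5.39 ± 1.16 for HIST1H3D (adjusted p = 0.00258 and 0.00994). The JPX-0750 calls of both were lost without JPX-0750 replicate 1 or 2, where the highest adjusted p was 0.0864 for HIST1H3B and 0.126 for HIST1H3D. Every 70-base window of HIST1H3D is shared with the annotated gene AL031777.3, so its reads and its calls are uncertain. HIST1H3F had 0, 1.15 and 0.538 under DMSO, 55.3, 85.7 and 2.78 under JPX-0700 and 82.2, 109 and 59.97 under JPX-0750, and passed the test with JPX-0750 only (5.79 ± 1.43, adjusted p = 0.0263, against 4.15 ± 1.43 with adjusted p = 0.108 with JPX-0700). That call was lost when any 1 of the DMSO or JPX-0750 libraries was left out, and the difference between the compounds did not pass the test (adjusted p = 0.848).

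The H4 genes that rose had levels near 0 under DMSO, unlike HIST1H4C. HIST1H4E (chr6:26204552-26206038, plus strand) had normalised counts of 0, 2.301 and 1.62 under DMSO, 313, 395 and 600.2 under JPX-0700 and 811, 632 and 155 under JPX-0750. HIST1H4B (chr6:26026815-26027252, minus strand) had 0, 1.53 and 4.31 under DMSO, 230.4, 298 and 511 under JPX-0700 and 414, 314 and 396 under JPX-0750. Each treated library was far above the highest DMSO value in both genes. HIST1H4E rose by 7.68 ± 0.87 with JPX-0700 and 7.72 ± 0.87 with JPX-0750 on the log2 scale (SE; limma adjusted p = 1.22e-05 and 1.08e-05). HIST1H4B rose by 7.11 ± 0.85 and 7.29 ± 0.85 (adjusted p = 2.25e-05 and 1.62e-05). Even so, treated HIST1H4E stayed below HIST1H4C in the same library, as all H4 genes did, on a scale of normalised counts of 3′ tags that was not divided by length.

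HIST1H4A (chr6:26021679-26021990, plus strand) had normalised counts of 0, 0 and 0 under DMSO, 212, 157 and 225 under JPX-0700 and 181, 186 and 11.7 under JPX-0750. With no DMSO read it was at least 372-fold higher with JPX-0700 and at least 169-fold higher with JPX-0750, against the floor of 3 reads over the group (limma adjusted p = 0.00079 and 0.00594). The JPX-0750 replicate 3 library stood far below the other 2 of its group, and the JPX-0750 call was lost without replicate 1 or without replicate 2 (highest adjusted p = 0.0912). HIST1H4L had 0, 3.07 and 0.538 under DMSO, 73.7, 85.7 and 147 under JPX-0700 and 71.9, 86.4 and 18.3 under JPX-0750 and rose by 5.74 ± 1.25 and 4.75 ± 1.25 on the log2 scale (adjusted p = 0.00882 and 0.0386). Its JPX-0700 call held under all 20 alternatives, and its JPX-0750 call under 8 of 20. HIST4H4, alone on chromosome 12, did not pass the test in either comparison (4.55 ± 1.57 and 4.75 ± 1.57, adjusted p = 0.107 and 0.121), with 1 DMSO read in all.

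**Figure D5:**
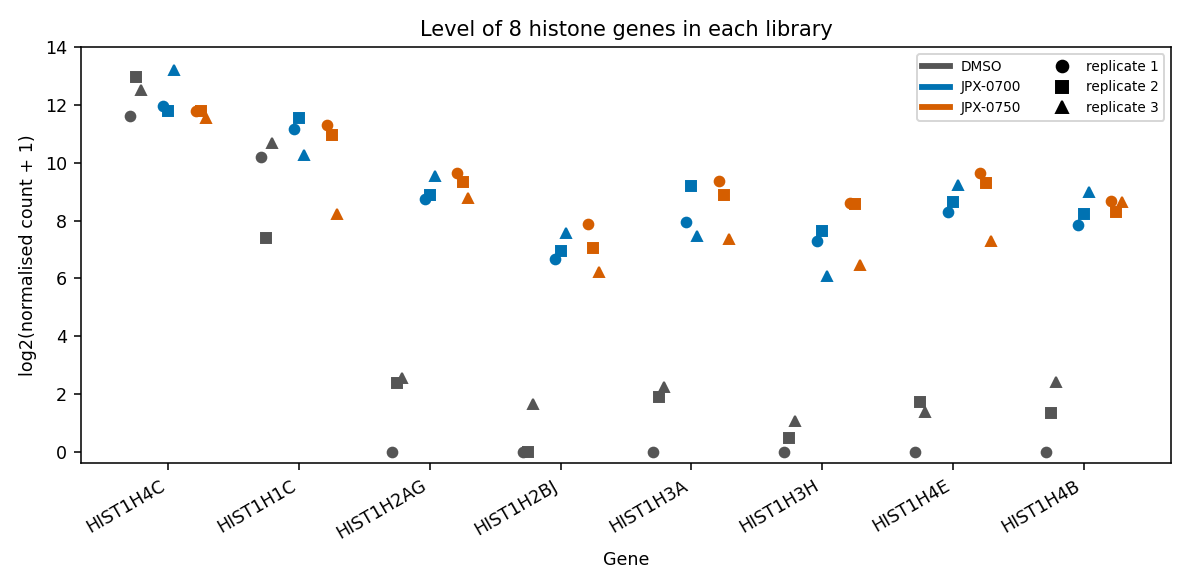
Level of 8 histone genes in each of the 9 libraries, as log2(normalised count + 1) (colours give the group, symbols the replicate number). HIST1H4C and HIST1H1C overlap between the groups, and the other 6 genes lie near the floor with DMSO and higher in all 6 treated libraries.

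H2A and H2B form the dimers that flank the H3 and H4 tetramer, and many of their genes lie head to head and share the DNA between them. HIST1H2AG (chr6:27133042-27135291, plus strand) had normalised counts of 0, 4.22 and 4.85 under DMSO, 433, 469.6 and 748 under JPX-0700 and 798, 646 and 443 under JPX-0750. Its neighbour HIST1H2BJ (chr6:27125897-27132750, minus strand) had 0, 0 and 2.15 under DMSO, 101.4, 123 and 189 under JPX-0700 and 233, 132 and 73.3 under JPX-0750. Both were at or near 0 in every DMSO library and well above in all 6 treated ones. HIST1H2AG rose by 7.42 ± 0.78 and 7.61 ± 0.78 on the log2 scale with JPX-0700 and JPX-0750 (SE; limma adjusted p = 4.59e-06 and 3.3e-06). HIST1H2BJ rose by 6.51 ± 1.11 and 6.49 ± 1.11 (adjusted p = 0.000973 and 0.00112).

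A further 5 H2A genes passed the test, each with 1 compound. HIST1H2AC had normalised counts of 0, 0.383 and 1.62 under DMSO, 184, 149 and 2.78 under JPX-0700 and 219, 200.1 and 108 under JPX-0750, with 1 read in JPX-0700 replicate 3, and rose with JPX-0750 (6.78 ± 1.45, limma adjusted p = 0.00916) while the JPX-0700 value was 4.94 ± 1.45 (adjusted p = 0.0534). HIST1H2AL had 0, 4.98 and 6.46 under DMSO, 87.6, 59.6 and 38.9 under JPX-0700 and 99.3, 86.4 and 49.98 under JPX-0750 and rose with JPX-0750 (4.43 ± 1.20, adjusted p = 0.0459, against 4.08 ± 1.20 with adjusted p = 0.0559 with JPX-0700). The treated libraries did not overlap with DMSO in either gene. HIST1H2AH had 0, 3.45 and 36.1 under DMSO, 179.7, 127 and 275 under JPX-0700 and 209, 182 and 6.66 under JPX-0750 and rose with JPX-0700 (5.08 ± 1.4, adjusted p = 0.0392, against 3.60 ± 1.4 with adjusted p = 0.214 with JPX-0750, where replicate 3 fell inside the DMSO range). HIST1H2AM had 0, 23.8 and 84.5 under DMSO, 258, 123 and 522 under JPX-0700 and 181, 95.5 and 129.9 under JPX-0750 and rose with JPX-0700 (4.32 ± 1.21, adjusted p = 0.0421, against 3.36 ± 1.21 with adjusted p = 0.161). HIST2H2AB, from chromosome 1 and named here after its values were seen, had 20.7, 9.203 and 55.4 under DMSO, 189, 157 and 525 under JPX-0700 and 168, 168 and 79.97 under JPX-0750 and rose with JPX-0700 (3.43 ± 0.81, adjusted p = 0.0155, against 2.51 ± 0.81 with adjusted p = 0.11). The calls of HIST1H2AL, HIST1H2AH and HIST1H2AM held under 5, 9 and 7 of 19, 20 and 20 alternatives, and each was lost without DMSO replicate 1 and without DMSO replicate 2. That of HIST2H2AB was lost without either of the same libraries, and that of HIST1H2AC without JPX-0750 replicate 1 or 2. HIST1H2AM shares 85.5% of its 70-base windows with other genes, mainly HIST1H3J, so its reads are uncertain too.

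HIST2H2AC, the H2A gene with the second highest mean, had normalised counts of 57.5, 34.9 and 163 under DMSO, 304, 253 and 178 under JPX-0700 and 284, 200.1 and 64.97 under JPX-0750. It did not pass the test (1.78 ± 0.73 and 1.15 ± 0.73, limma adjusted p = 0.185 and 0.502). HIST1H2AJ was the only tested H2A gene with a negative log2 fold change, -0.87 ± 1.28 and -0.36 ± 1.28 (adjusted p = 0.733 and 0.929), and 1 library, DMSO replicate 3, held 1006 of its 1163 DMSO reads. It also shares 82.7% of its 70-base windows with other genes, so its reads are uncertain.

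Among the H2B genes, HIST1H2BG had normalised counts of 0, 0 and 2.15 under DMSO, 119.8, 74.5 and 55.6 under JPX-0700 and 226, 95.5 and 51.6 under JPX-0750. It rose by 5.77 ± 1.21 and 6.16 ± 1.21 on the log2 scale (limma adjusted p = 0.00632 and 0.00416), and the JPX-0750 call was lost without JPX-0750 replicate 1. HIST2H2BF, from chromosome 1, had 0, 0 and 1.62 under DMSO, 36.9, 26.1 and 656 under JPX-0700 and 68.5, 72.8 and 43.3 under JPX-0750. It rose by 5.99 ± 1.4 and 5.47 ± 1.4 (adjusted p = 0.014 and 0.0321). The JPX-0750 call held under 11 of 20 alternatives and was lost without any 1 of the DMSO or JPX-0750 libraries, and the JPX-0700 call was lost without DMSO replicate 2. JPX-0700 replicate 3 alone held 236 of its 251 JPX-0700 reads, and the 3 DMSO reads put its read ratios at 552 (95% counting interval 187 to 2696) and 104 (95% counting interval 33.9 to 516). HIST1H2BD had 0, 8.05 and 32.8 under DMSO, 161, 93.2 and 50.02 under JPX-0700 and 192, 132 and 93.3 under JPX-0750 and rose with JPX-0750 (4.31 ± 1.18, adjusted p = 0.0471, against 3.77 ± 1.18 with adjusted p = 0.0724), a call that held under 6 of 20 alternatives.

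HIST1H2BC and HIST1H2BK, the H2B genes with the highest means, were expressed under DMSO. HIST1H2BC had normalised counts of 28.7, 9.203 and 90.98 under DMSO, 341, 175 and 1178 under JPX-0700 and 219, 141 and 197 under JPX-0750 and HIST1H2BK had 50.3, 60.6 and 44.1 under DMSO, 207, 142 and 631 under JPX-0700 and 233, 159 and 209.9 under JPX-0750. JPX-0700 replicate 3 was the highest library of both. Each rose with JPX-0700 (3.77 ± 0.83 and 2.35 ± 0.66, limma adjusted p = 0.00975 and 0.0444) and did not pass the test with JPX-0750 (2.597 ± 0.83 and 1.93 ± 0.66, adjusted p = 0.105 and 0.135). The HIST1H2BC call was lost without JPX-0700 replicate 3 or DMSO replicate 2, and the HIST1H2BK call held under 7 of 20 alternatives. HIST1H2BK shares 55.8% of its 70-base windows with other genes.

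Promoters and transcript ends were searched for letters known in the family. The promoter windows span 250 bases before to 50 bases after the start, from RefSeq on GRCh38.p14. They are shown for an H2A gene whose window covers most of that of its H2B neighbour, for an H3 gene and for an H4 gene. Each of these genes rose with both compounds. Capitals mark TATAAA on the given strand (the TATA box), CCAAT on either strand (ATTGG on the other; the CCAAT box) and ATTTGCAT on either strand (ATGCAAAT on the other; the octamer bound by POU2F1).
HIST1H2AG (chr6:27132793-27133092, plus strand): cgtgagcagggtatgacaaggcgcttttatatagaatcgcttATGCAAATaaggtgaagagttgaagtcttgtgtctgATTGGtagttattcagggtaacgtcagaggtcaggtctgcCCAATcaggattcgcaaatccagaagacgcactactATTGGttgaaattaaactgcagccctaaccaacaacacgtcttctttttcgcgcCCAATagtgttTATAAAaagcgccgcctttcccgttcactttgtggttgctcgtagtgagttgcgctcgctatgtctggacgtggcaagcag
HIST1H3A (chr6:26020201-26020500, plus strand): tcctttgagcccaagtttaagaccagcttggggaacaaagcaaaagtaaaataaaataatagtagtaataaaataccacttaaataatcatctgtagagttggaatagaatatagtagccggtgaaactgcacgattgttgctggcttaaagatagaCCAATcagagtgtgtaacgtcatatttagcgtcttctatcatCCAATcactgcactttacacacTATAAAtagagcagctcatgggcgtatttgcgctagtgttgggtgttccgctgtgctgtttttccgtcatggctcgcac
HIST1H4E (chr6:26204360-26204659, plus strand): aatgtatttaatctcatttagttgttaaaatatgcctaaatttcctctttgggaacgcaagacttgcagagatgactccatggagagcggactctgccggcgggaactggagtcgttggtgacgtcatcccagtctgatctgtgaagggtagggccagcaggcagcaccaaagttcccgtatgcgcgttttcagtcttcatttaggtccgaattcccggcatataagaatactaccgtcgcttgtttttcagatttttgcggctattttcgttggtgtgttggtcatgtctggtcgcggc
The HIST1H2AG window holds all 3 motifs, the HIST1H3A window TATAAA and CCAAT, and the HIST1H4E window none of these letters.

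Over the 69 promoter windows of histone genes, TATAAA was found in 40 (58.0%, against 7.33% of 35116 promoters), CCAAT in 59 (85.5% against 34.6%) and ATTTGCAT in 27 (39.1% against 1.77%). A gene with more than 1 annotated start, such as HIST1H2BD, counts with each of its windows, so these are not counts of genes. The motifs differed by class. CCAAT stood in all 6 H1, 16 H2A, 20 H2B and 14 H3 promoters but in 3 of 13 H4 promoters, and ATTTGCAT in 11 of 16 H2A and 15 of 20 H2B promoters, in 1 H3 promoter and in no H1 or H4 promoter. Among windows of genes that rose with at least 1 compound, 16 of 22 held TATAAA, 20 of 22 CCAAT and 12 of 22 ATTTGCAT. Among windows of tested genes that did not rise, the counts were 16, 28 and 12 of 33. A window of HIST1H3D lies away from that gene (chr6:26196840-26197250) and ends with the window of HIST1H2AD at chr6:26199543. Its letters, ATTTGCAT included, thus count under H2A and again under H3 and the genes that rose. A match of letters is not a bound site.

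The promoter windows of 12 pairs of histone genes overlap on opposite strands, and in 10 of these pairs both genes were tested. HIST1H2AG and HIST1H2BJ were the 1 pair in which both rose, with either compound. With JPX-0700, 1 gene rose in 4 pairs and neither in 5, and with JPX-0750 the counts were 3 and 6. HIST1H2BF with HIST1H3D is among the pairs in which 1 gene rose with either compound. HIST1H3D lies at chr6:26196840-26197250, away from the overlap (chr6:26199266-26199543). HIST1H2BF shares that same overlap with HIST1H2AD, which was not tested. HIST1H2BG rose with both compounds while its partner HIST1H2AE did not pass the test (4.004 ± 1.17 and 3.71 ± 1.17, limma adjusted p = 0.0521 and 0.0962). In the pair of HIST1H2AC and HIST1H2BC, the H2A gene rose with JPX-0750 and the H2B gene with JPX-0700. A difference between partners was not tested.

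At the other end of the transcript, the stem-loop is read by the letters CTTTTNAG of its loop and the bases around it. GENCODE v29 annotates 34 of the 70 coding histone genes only to the stop codon, where nothing could be searched. Of the 31 annotated for at least 80 bases past the stop, 29 held CTTTTNAG on the coding strand within 200 bases, against 3.37% of 18460 other genes, and it began 27 to 72 bases after the stop (median 41). The 16 bases around it are given for genes that rose with both compounds, with the searched letters in capitals.
HIST1H3H (chr6:27810516-27810531, plus strand): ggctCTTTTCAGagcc
HIST1H2BG (chr6:26216218-26216233, minus strand): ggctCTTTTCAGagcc
HIST1H4E (chr6:26205001-26205016, plus strand): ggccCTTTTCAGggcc
HIST1H4B (chr6:26026901-26026916, minus strand): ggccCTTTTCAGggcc
HIST1H2AG (chr6:27133515-27133530, plus strand): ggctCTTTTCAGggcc
The form of HIST1H3H and HIST1H2BG was the most common, in 17 genes, and that of HIST1H4E and HIST1H4B stood in 5. HIST1H2AG alone had its form. The letters were not found in the 51 annotated bases past the HIST1H4C stop codon.

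Genes that rose were found both with and without a long annotated end. An annotated stretch of more than 200 bases past the stop codon was found for 25 of the 70 coding genes, of which 20 were tested and 9 rose with at least 1 compound. Among the other 45, 37 were tested and 14 rose. None of the 8 genes with the highest DMSO means had such an end. HIST1H3H, HIST1H2AG, HIST1H2BG and HIST2H2BF hold the stem-loop well inside their longest annotated transcript, which runs on past it.

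Near-identical copies limit what the counts can show. Windows were taken from 1 annotated transcript per gene, so windows shared only by another transcript of the gene, as for HIST1H3J, are not counted. With reads of 70 bases, 43 of the 73 genes share no window of that transcript with another gene, 13 share under 20%, 1 shares between 20% and 50%, 10 share 50% or more and 6 share every window. Of the 11 genes with no read, 8 belong to these last 2 sets, among them the duplicated HIST2H2AA3 and HIST2H2AA4, HIST2H4A and HIST2H4B, and HIST2H3A and HIST2H3C. No source used here says how reads that map to several places were counted, so no level is claimed for the genes with no read, and the levels of the others in these sets are uncertain. The other 3 without a read were HIST1H2AA, HIST1H2BA and HIST3H3. The 4 genes with reads that were not tested were HIST1H1T (7 reads in all) and HIST1H3E, HIST1H4G and HIST1H2APS1 (1 read each).

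Most calls lay in the HIST1 cluster on chromosome 6, as most of the tested genes do. In the HIST1 cluster 17 of 49 tested genes rose with each compound. Over all genes, 5.28% rose with JPX-0700 and 3.9% with JPX-0750. In HIST2, 2 of 6 (HIST2H2AB and HIST2H2BF) rose with JPX-0700 and 1 of 6 (HIST2H2BF) with JPX-0750, and none of the 2 tested HIST3 genes or the HIST4 gene did. The median log2 fold change with JPX-0700 and JPX-0750 was 3.32 and 3.71 in HIST1, 3.40 and 2.399 in HIST2 and 3.10 and 3.21 in HIST3. Clusters were not compared by a test.

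JPX-0750 and JPX-0700 were compared directly over the 58 genes, at the same 24 h and at concentrations not given here. No histone gene passed the test (limma, adjusted over 12301 genes), 0 had an unadjusted p under 0.05 where 3.21% of all genes did, 0.0% of all genes were called, and voom on the recovered reads called 0 as well. The median difference was -0.05 on the log2 scale. For HIST1H4E the difference was 0.03 (95% interval -1.79 to 1.86), for HIST1H2AG 0.19 (-1.44 to 1.83), for HIST1H3A 0.33 (-1.59 to 2.26) and for HIST1H4C -0.61 (-1.56 to 0.35). These intervals reach past a difference of 1 log2 unit in at least 1 direction, so the data do not show that the compounds act alike on these genes. HIST1H4J and HIST1H4K were the 2 genes of which every JPX-0750 library lay above every JPX-0700 library (background 4.72%). Their differences were 2.97 (-0.32 to 6.26) and 2.16 (-0.91 to 5.24), each with an adjusted p of 0.848. HIST1H4K shares every 70-base window with HIST1H4J, which shares 79.9% of its own with HIST1H4K, so the same reads may stand behind both and they are not 2 separate results.

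Genes of the pathways around histone supply were compared in the same fits. Of 45 genes of S phase and DNA replication, 1 rose and 4 fell with JPX-0700, where 5.28% of all genes rose and 0.496% fell. With JPX-0750 0 passed, where 3.9% of all genes rose and 0.0732% fell. The medians were -1.003 and -0.84 on the log2 scale. Those that fell were MCM2, a subunit of the replicative helicase (-3.27 ± 0.65, limma adjusted p = 0.00405), FEN1, which trims Okazaki fragments (-2.44 ± 0.63, adjusted p = 0.0262), and RRM1 and RRM2, the subunits of ribonucleotide reductase (-1.99 ± 0.49 and -1.92 ± 0.55, adjusted p = 0.0192 and 0.0469). MCM2 had normalised counts of 618, 569 and 341 under DMSO, 59.9, 44.7 and 47.2 under JPX-0700 and 61.6, 136 and 262 under JPX-0750, with no overlap between DMSO and treated libraries. CCNE2, which encodes cyclin E2, rose (3.01 ± 0.75, adjusted p = 0.0216) and had 35.02, 35.7 and 143 under DMSO, 286, 321 and 1064 under JPX-0700 and 342, 241 and 81.6 under JPX-0750. MCM3 and MCM4, the genes of the list with the highest means, did not pass the test (-0.66 and -1.18 with JPX-0700, -1.06 and -1.88 with JPX-0750).

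Of 34 tested genes of histone transcription and 3′ processing, 1 rose and 0 fell with JPX-0700 and 0 passed with JPX-0750 (medians -0.41 and -0.10). The 1 gene was ZCCHC11, also known as TUT4, a terminal uridylyltransferase that has been tied to the decay of histone messengers. It had normalised counts of 52.1, 24.5 and 121 under DMSO, 424, 257 and 211 under JPX-0700 and 284, 241 and 303 under JPX-0750 and log2 fold changes of 2.38 ± 0.65 and 2.33 ± 0.65 (limma adjusted p = 0.0376 and 0.053). SLBP, chosen after its values were seen because it holds the stem-loop, had 239, 300.2 and 227 under DMSO, 267, 216 and 111 under JPX-0700 and 185, 168 and 325 under JPX-0750, which overlap. SNRPB and SNRPD3, Sm proteins of which the U7 particle holds a share, did not pass the test (-0.09 and 0.13 with JPX-0700, -0.48 and -0.48 with JPX-0750).

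None of the 26 tested histone chaperones and assembly factors passed the test in either comparison (limma; medians -0.59 and -0.45), among them NAP1L1 (0.04 and -0.52) and SET (-0.42 and -0.93). The same held for the 10 tested replication-independent histone genes (medians -0.28 and -0.38), most of whose messengers are polyadenylated. H2AFZ, which encodes H2A.Z, had normalised counts of 2935, 4672 and 1246 under DMSO, 571, 842 and 3124 under JPX-0700 and 787, 1069 and 2659 under JPX-0750 and H3F3B, which encodes H3.3, had 2819.6, 2260.4 and 1384 under DMSO, 2023, 2847 and 4260.1 under JPX-0700 and 3687, 3479 and 2810.5 under JPX-0750. Both overlap between the groups, and their log2 fold changes were -1.17 ± 0.63 and 0.49 ± 0.42 under JPX-0700 and -0.98 ± 0.63 and 0.68 ± 0.42 under JPX-0750 (adjusted p = 0.318, 0.527, 0.507 and 0.483). Of the myeloid genes, LYZ fell with JPX-0750 (-1.93 ± 0.49, adjusted p = 0.0292; -1.55 ± 0.49, adjusted p = 0.0737 with JPX-0700), the other 7 tested did not pass, and none of the 6 tested markers of other cells did.

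Scaling bears on all of these folds. When each library was scaled to the same total instead, the all-gene median on the log2 scale moved from 0.14 to -0.50 with JPX-0700 and from 0.26 to -0.23 with JPX-0750, and the split of calls over all genes moved from 649 higher and 61 lower to 378 and 283 with JPX-0700 and from 480 and 9 to 304 and 57 with JPX-0750. Under the same scaling 15 and 13 of the 58 histone genes rose, against 3.07% and 2.47% of all genes, and 0 fell, and 55 of 58 kept a log2 fold change above 0, as in the first scaling. The medians of the histone genes were then 3.004 and 3.30. For the 36 of the 58 with a DMSO mean under 5 normalised counts, the direction was fixed by their admission.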

How the data were processed

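MV4-11 cells were measured by QuantSeq 3′ mRNA sequencing in 9 libraries, 3 each of DMSO, JPX-0700 and JPX-0750. The deposited values are normalised counts per gene in a single table, another unit than raw counts, written with a decimal comma. Per the submitters' processing notes the tools were FastQC 0.11.9, STAR 2.4.2a, SAMtools 1.4, featureCounts 2.0.3 and DESeq2, on GRCh38, with no settings given in the sources used here. Every value was a whole multiple of 1 step per library (tolerance 1e-06), which gave back whole reads and the depths.

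Histone rows were chosen by symbol, and the genes and gene lists were chosen with earlier results of these data known. Genes named with every value were the 20 called with the largest fold changes, the 2 with the highest means in each class and, from each list, those called and the 2 with the highest means. The main test was limma 3.58.1 (R 4.3.3) on log2(value + 1) with a variance trend, all 9 libraries and genes with a mean of at least 5, two-sided, with Benjamini-Hochberg adjustment over 12301 genes and a threshold of 0.05. It was tested on simulated data, in which the changed genes had DMSO levels well above 0. That check thus does not cover changed genes with few DMSO reads. Ratios of reads carry exact 95% counting intervals and a floor of 3 reads over the group, which cover counting error only, since reads without molecular identifiers are not independent molecules.

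Same-numbered JPX-0700 and JPX-0750 libraries deviated together (correlations 0.129, 0.171 and 0.190). Those with different numbers ran from -0.198 to 0.153, so the highest of them exceeded the lowest same-numbered value. On this limited basis the numbers, which the labels give, were taken to pair that comparison. A replicate block there gave 0 histone calls too. Sequences came from GENCODE v29 transcripts and from RefSeq promoters (GRCh38.p14). The promoters gave 69 windows, where a gene such as HIST1H2BD counts with each of its starts. All 73 matched a RefSeq gene.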

Additional observations from a re-analysis of the deposited data

How the results depend on the processing

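The direction of the histone calls held under every alternative that was run: none of the 58 genes, or of those tested, was called lower. For the 36 of the 58 with a DMSO mean under 5 normalised counts, admission through their treated libraries fixed that direction. A held direction is thus no support for those genes. The JPX-0700 count of 19 ran from 13 to 24 and the JPX-0750 count of 18 from 8 to 29 when 1 library was left out, while the share of all genes that rose ran from 3.13% to 6.85% and from 2.06% to 8.06%. Both counts were 43 without the 3 libraries that detected the fewest genes, a choice made after seeing the data, and the cause was not tested. A pseudocount of 5 gave medians of 2.33 and 2.70, by construction lower for genes near 0. The median of JPX-0750 against JPX-0700 ran from -0.48 to 0.81 with 1 library left out. With the replicate number as a replicate block, 20 and 17 genes rose against DMSO (5.09% and 3.76% of all genes), where same-numbered libraries did not deviate together (correlations -0.143 to -0.044). With voom on the recovered reads, also chosen after seeing the data, 22 and 24 rose (6.8% and 5.97% of all genes). Of the values of single genes under the alternatives, 2473 kept their call or lack of one, 157 lost a call and 58 gained one. A reversal was counted only where the gene was called in at least 1 of the 2 fits, and 0 were found. Changes of sign in genes called in neither fit are among the 2473. The planned edgeR and DESeq2 tests were not run, and voom stood in for them. Depth limits the genes with few DMSO reads: where 1 treated read is worth up to 4.61 normalised counts, a level of that size is a single read.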

Other observations

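The HIST1 cluster lies at chr6:25726132-27893843 (GRCh38), and 13 genes other than histones were tested inside it. They were looked at after the histone values had been seen. Over all genes, 5.28% rose with JPX-0700 and 3.9% with JPX-0750. With JPX-0700, 2 of the 13 rose (limma), and with JPX-0750 0 did, with medians of 0.75 and 0.11 on the log2 scale. Those that rose with JPX-0700 were TRIM38, which encodes a ubiquitin ligase (1.96, adjusted p = 0.0284), and the pseudogene BTN2A3P (5.80, adjusted p = 0.0132).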
